A study of Mus musculus with 2 samples.

Results

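The Ifitm genes encode small interferon-induced transmembrane proteins, and 4 of them, Ifitm1, Ifitm2, Ifitm3 and Ifitm6, were followed here among the 31053 genes counted in single mouse bone marrow progenitor cells. The members were chosen by their measured differences between the libraries and among the cell classes, already known from these counts, so the values below describe them and test nothing. The matrix held 3 further family genes, Ifitm5, Ifitm7 and Ifitm10. Marrow of the hind limbs of C57BL/6 mice was sorted for cells negative for lineage markers, positive for c-Kit and negative for Sca1, a gate that holds the committed myeloid, erythroid and megakaryocyte progenitors, and was profiled with the 10x Genomics 3′ chemistry. The Control library pooled 1 Runx1f/f and 1 Runx1f/- mouse, so 1 of its donors carried a germline mutation of 1 Runx1 allele. For the second library, labelled Runx1 KO, the sources used here give no count of animals, and for neither library a Cre driver or an age. A description field that names embryos was set aside in favour of the fields that name marrow. The neutrophil samples mentioned in the design text were not analysed here.

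Control held 6906 cells with a median of 21593.5 unique molecular identifiers (UMIs) per cell, against 7889 cells and a median of 16092 in the library labelled Runx1 KO. The libraries shared 13 cell barcodes. Runx1 transcripts went against the second label: Runx1 stood at 143 counts per 1000000 UMIs (CPM) in Control and at 361 CPM in the library labelled Runx1 KO, and it was higher there in all 9 classes compared. A 3′ tag does not show whether an exon elsewhere in the gene was deleted, so the genotype was not checked by these counts. With 1 library per group there was no replicate, no test and no p-value; the 95% intervals given are exact and cover counting error only.

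Ifitm proteins sit in cellular membranes and hinder the fusion of enveloped viruses with them. Ifitm3 acts mainly in endosomes and Ifitm1 largely at the cell surface, and both are classical targets of type I and type II interferon. Members of the family are also known to be expressed in stem and progenitor cells without infection. The deposited annotation put each cell in 1 of 18 classes, nearly all named by a gene. Among them were Car1 (carbonic anhydrase 1, erythroid), Hba-a2 (alpha globin, later erythroid) and Pf4 (platelet factor 4, megakaryocyte). Others were Prss34 (a basophil and mast cell protease), Prg2 (eosinophil granule protein), CD34 (early progenitors) and a class called Unannotated. Ly86 stood for monocyte and dendritic lineages, and Gstm1/CD63, Fcnb and Ltf (lactoferrin of late granules) for the neutrophil lineage. Gstm1/Ly86 cells fell in both monocyte and neutrophil progenitor-like clusters, as given below.

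All 4 members lie within 63.1 kb of mouse chromosome 7 on GRCm38 (GENCODE annotation). Ifitm2 (ENSMUSG00000060591) occupies chr7:140954837-140955987 on the minus strand in 2 exons and overlaps the predicted gene Gm45717. Ifitm1 (ENSMUSG00000025491) occupies chr7:140967221-140969825 on the plus strand, with 3 exons in its main transcript. Ifitm3 (ENSMUSG00000025492) occupies chr7:141009586-141010770 on the minus strand in 2 exons, and Ifitm6 (ENSMUSG00000059108) lies beside it at chr7:141015699-141017924 on the same strand with 3 exons. The main transcripts shared no window of 90 bases, and the longest run shared by a pair was 69 bases, between Ifitm2 and Ifitm3. The sources used here do not say how reads that fit more than 1 member were counted.

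The promoters are shown because these neighbouring genes differed so widely in their levels. Each window runs from 250 bases before to 50 bases after the RefSeq start on GRCm38.p6, 5′ to 3′ on the gene's strand, and capitals mark the motif matches. The windows are chr7:140967826-140968125 (plus strand) for Ifitm1, chr7:140955912-140956211 (minus) for Ifitm2, chr7:141010695-141010994 (minus) for Ifitm3 and chr7:141016843-141017142 (minus) for Ifitm6.
Ifitm1: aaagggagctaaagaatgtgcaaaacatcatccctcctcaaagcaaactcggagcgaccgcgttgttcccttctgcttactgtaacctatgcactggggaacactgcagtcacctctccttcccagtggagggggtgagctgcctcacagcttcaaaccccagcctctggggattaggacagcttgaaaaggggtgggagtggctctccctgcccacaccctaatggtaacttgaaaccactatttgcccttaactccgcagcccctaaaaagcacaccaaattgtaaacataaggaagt
Ifitm2: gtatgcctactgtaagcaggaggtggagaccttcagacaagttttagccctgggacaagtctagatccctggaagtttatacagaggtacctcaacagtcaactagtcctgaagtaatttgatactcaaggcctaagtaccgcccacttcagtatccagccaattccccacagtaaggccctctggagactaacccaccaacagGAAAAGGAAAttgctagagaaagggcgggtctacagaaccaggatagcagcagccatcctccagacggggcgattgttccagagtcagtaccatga
Ifitm3: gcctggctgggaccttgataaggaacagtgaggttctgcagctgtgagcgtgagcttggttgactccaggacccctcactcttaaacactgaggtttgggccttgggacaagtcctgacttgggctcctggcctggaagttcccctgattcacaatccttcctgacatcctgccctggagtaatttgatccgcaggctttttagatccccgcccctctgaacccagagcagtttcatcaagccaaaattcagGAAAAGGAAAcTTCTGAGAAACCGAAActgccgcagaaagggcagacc
Ifitm6: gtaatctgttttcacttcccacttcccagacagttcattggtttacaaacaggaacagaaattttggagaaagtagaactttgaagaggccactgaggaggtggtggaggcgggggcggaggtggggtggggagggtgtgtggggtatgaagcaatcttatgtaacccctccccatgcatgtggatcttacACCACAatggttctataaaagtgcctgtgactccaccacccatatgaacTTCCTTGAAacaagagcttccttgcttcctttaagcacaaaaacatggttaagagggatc

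The letters searched, on both strands, were GAAA, any 2 bases and GAAA again for the interferon-stimulated response element, TTCNNNGAA for the gamma-activated site, TGTGGT or TGCGGT for RUNX factors and AGATAA for GATA factors. The response element letters matched 3.44% of the 32851 RefSeq promoter windows of this length. They were present in Ifitm2 at -46 to -37 from the start and in Ifitm3 at 3 to 12 and again at 20 to 29. The gamma-activated letters, present in 8.30% of windows, stood in Ifitm3 at 14 to 22, overlapping the second response element match, and in Ifitm6 at -10 to -2. The RUNX letters, present in 22.4% of windows, occurred among the members in Ifitm6 alone, at -59 to -54 on the reverse strand (ACCACA). The GATA letters, found in 11.2% of windows, were in no member's window, and the Ifitm1 window held no match to any of the searched letters. The Ifitm1 and Ifitm6 windows lie wholly inside the GENCODE gene spans given above. For both genes the sequence around the outer 5′ end of the span was therefore not searched.

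Summed over all cells, the family took the same part of both libraries, while its make-up differed. The 4 members together reached 1152 CPM in Control and 1152 CPM in the library labelled Runx1 KO. Because 1 UMI stands for 1 captured 3′ end, levels of different genes are compared in UMIs without division by length. Ifitm2 supplied 53.6% of the family's UMIs in Control and 58.2% in the library labelled Runx1 KO, Ifitm3 18.2% and 32.7%, Ifitm6 0.713% and 3.21%, and Ifitm1 27.5% and 5.91%. The equal sums therefore held much less Ifitm1 and more Ifitm3 in the second library.

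By member, Ifitm1 stood at 317 CPM in Control and 68.1 CPM in the library labelled Runx1 KO, a ratio of 0.215 (0.210 to 0.219). Ifitm2 was at 617 and 670 CPM, a ratio of 1.09. Ifitm3 was at 210 and 377 CPM, a ratio of 1.79 (1.77 to 1.82). Ifitm6 was at 8.22 and 37.0 CPM, a ratio of 4.5 (4.24 to 4.78). On the scale of log2(CPM + 10), 2 members passed a 1.5-fold difference upward and 1 downward, where 4.28% and 1.65% of the 4600 genes measured over all cells did so; a gene had to have 30 CPM in 1 of the libraries and 100 UMIs in the pair to be measured. Ifitm1 had the fifth lowest of those 4600 differences, at -2.07.

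Within the 9 classes that held at least 100 cells in each library, the members differed in direction as well as in size. Ifitm1 could be measured in 8 of them and was at least 1.5-fold lower in the library labelled Runx1 KO in 3 (Car1, CD34 and Unannotated) and higher in 1 (Fcnb). Ifitm2 passed 1.5-fold in 0 of 9, with ratios between 0.944 and 1.22. Ifitm3 was at least 1.5-fold higher in 6 of 9 and lower in 0, with ratios from 0.666 in Pf4 cells to 3.91 in Fcnb cells. Ifitm6 was measured in none of the 9. The shares of all measured genes past the same fold were 3.67% higher and 1.95% lower in Car1 cells, 7.15% and 3.38% in Pf4, 2.19% and 0.817% in Ly86, 2.85% and 1.37% in CD34, and 1.38% and 0.7% in Gstm1/CD63. They were 1.8% and 0.751% in Hba-a2, 1.07% and 0.92% in Fcnb, 1.63% and 0.628% in Gstm1/Ly86, and 7.9% and 7.16% in Unannotated cells, so the fold passed is most common among the Unannotated cells and least common in Fcnb cells.

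**Figure D1:**
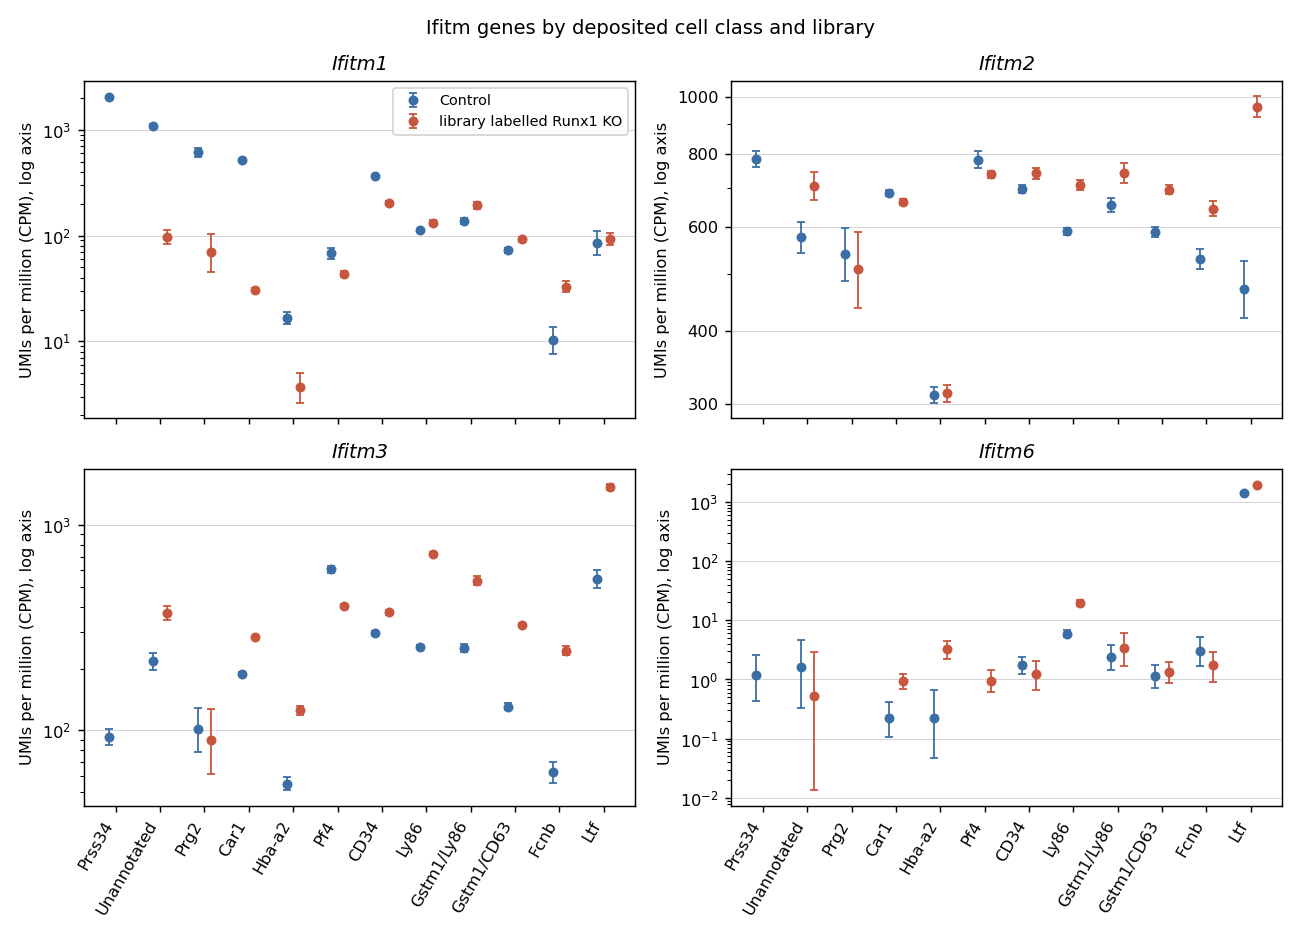
Level of each member (CPM, log axis) by deposited cell class, with 1 point per library where it held at least 20 cells and a UMI, and bars for exact 95% Poisson intervals. Ifitm1 runs from 2028 CPM in Control Prss34 cells to 3.67 CPM in Hba-a2 cells of the library labelled Runx1 KO, Ifitm6 stands high in Ltf cells alone, and Ifitm2 lies within a narrow band in most classes.

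**Figure D2:**
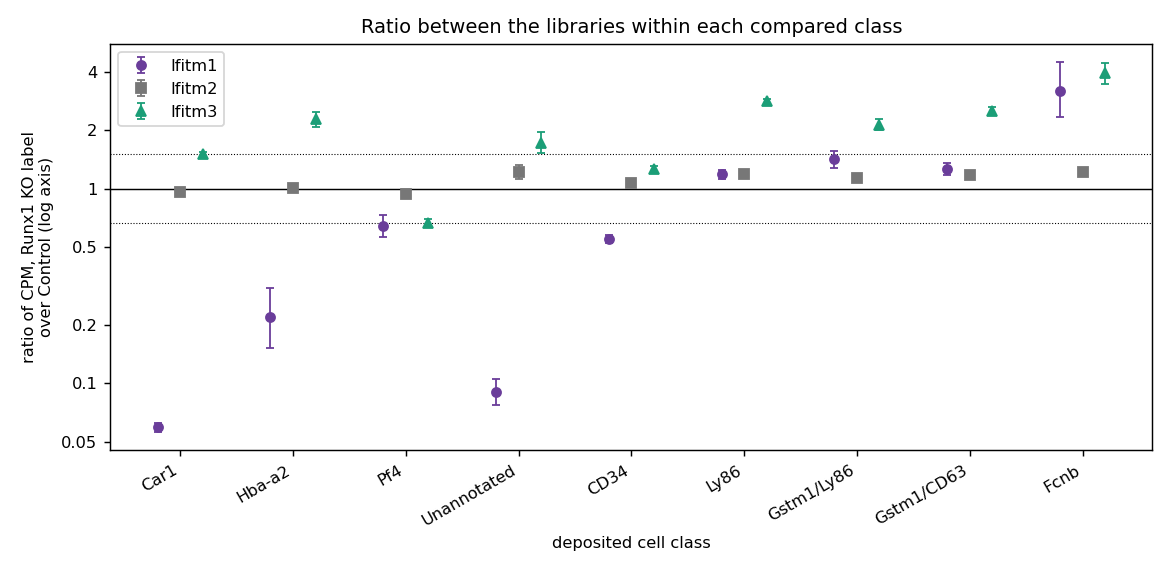
Ratio of the library labelled Runx1 KO over Control (log axis) within each compared class, with 1 marker each for Ifitm1, Ifitm2 and Ifitm3, exact 95% intervals and dotted lines at 1.5-fold. Ifitm1 is at 0.0596 in Car1 cells and 3.19 in Fcnb cells, Ifitm3 is above 1 in every class but Pf4, and Ifitm2 stays near 1.

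Ifitm1, the member best known at the cell surface, was most abundant in Control in Prss34 cells, at 2028 CPM over 337 cells. There it made up 69.8% of the family's UMIs, and 51.0% of those cells held at least 20 Ifitm1 UMIs. The library labelled Runx1 KO had 1 cell of that class, which held no Ifitm1 UMI. The next Control levels were 1074 CPM in Unannotated cells, 611 CPM in the 37 Prg2 cells, 515 CPM in Car1 and 367 CPM in CD34, none of which overlapped its neighbour in counting error. Further down, Gstm1/Ly86 cells stood at 137 CPM. Ly86 cells at 112 CPM were followed by Ltf, Gstm1/CD63, Pf4, Cd74 and Vpreb1 cells from 85.5 down to 57.8 CPM, each overlapping the next. Hba-a2 cells, at 16.7 CPM, and Fcnb cells, at 10.3 CPM, were lowest.

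The order was different in the library labelled Runx1 KO. CD34 cells led at 203 CPM and overlapped Gstm1/Ly86 cells at 194 CPM, ahead of Ly86 cells at 133 CPM. Unannotated, Ltf, Gstm1/CD63 and Prg2 cells followed between 97.4 and 70.0 CPM with overlapping intervals. Pf4 cells at 43.5 CPM overlapped Prg2 cells, Fcnb cells at 33.0 CPM overlapped Car1 cells at 30.6 CPM, and Hba-a2 cells were lowest at 3.67 CPM. Car1 cells stood in the upper part of the Control order and near the lower end of this one.

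In Car1 cells Ifitm1 was at 515 CPM in Control (2210 cells) and 30.6 CPM in the library labelled Runx1 KO (3003 cells). It was 16.8-fold lower (15.9 to 17.7), the lowest log2 difference of the 4714 genes measured in that class, at -3.69. The share of Car1 cells with an Ifitm1 UMI was 61.5% against 21.7% at median depths of 15393.5 and 14621 UMIs, and 44.7% against 9.79% after each cell was thinned to 5000 UMIs. For comparison, Hba-a2 cells, the class lowest in Ifitm1 in the library labelled Runx1 KO, held a UMI in 20.7% and 6.29% of cells at depths of 51294.5 and 37146, or in 4.41% and 1.70% after thinning. The Car1 shares were above those of Hba-a2 cells in both libraries.

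The Control Car1 level was carried by a minority of cells. The median Car1 cell stood at 77.5 CPM, the upper quartile at 479 CPM and the ninetieth percentile at 2364 CPM, and the top 10% of cells held 65.6% of the Ifitm1 UMIs. There were 347 Control Car1 cells with at least 20 Ifitm1 UMIs (15.7%), against 2 of 3003 (0.0666%) in the library labelled Runx1 KO. In that library the upper quartile was 0 and the ninetieth percentile 88.7 CPM. The Ifitm1-rich cells of the Control class therefore had almost no counterpart.

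Since Prss34 cells were so rich in Ifitm1, the Car1 cells were split by their UMIs of 6 basophil and mast cell markers (Prss34, Mcpt8, Cpa3, Ms4a2, Fcer1a and Cd200r3). Cells with 0 such UMIs stood at 345 CPM in Control (1173 cells) and 20.5 CPM in the library labelled Runx1 KO (1631 cells). With 1 to 2 marker UMIs the levels were 513 and 31.9 CPM, with 3 to 9 they were 1084 and 50 CPM, and with 10 or more they were 1385 and 91.8 CPM in 72 and 80 cells. Ifitm1 was higher in the bins with more marker UMIs in both libraries, and the ratio stayed between 0.0462 and 0.0663 in every bin. The 7 basophil and mast cell markers of the full list (with Gata2) summed to 334 CPM in Control Car1 cells and 267 CPM in the others, where Prss34 itself was at 0. Had the Prss34 and Mcpt8 UMIs in Control Car1 cells come with Ifitm1 at the ratio seen in Prss34 cells, they would account for 3.44 CPM of the 515. That reckoning took only those markers at a fixed ratio, and its assumption was not tested. It does not measure the part of Car1 cells that themselves resembled basophils.

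**Figure D3:**
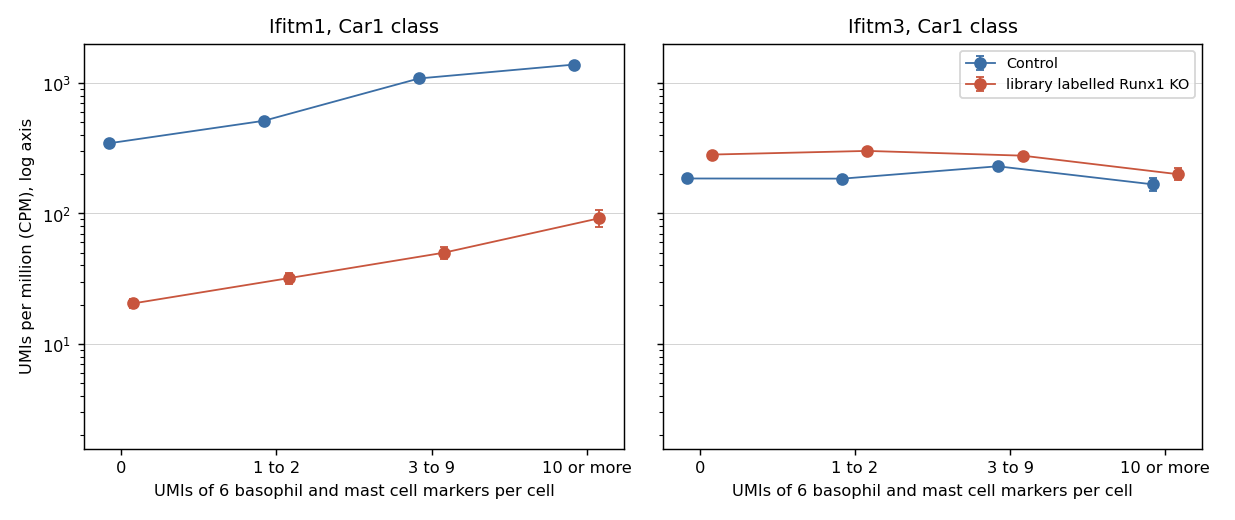
Ifitm1 and Ifitm3 levels (CPM, log axis) of Car1 cells binned by their UMIs of 6 basophil and mast cell markers, with 1 line per library and exact 95% intervals. Ifitm1 climbs from 345 to 1385 CPM in Control and from 20.5 to 91.8 CPM in the library labelled Runx1 KO, with a wide gap in each bin. The Ifitm3 lines lie closer together, with Control the lower: 185 and 283 CPM with 0 markers, and 167 and 200 CPM with 10 or more.

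The Car1 classes of the libraries were not made of the same cells. The 9 erythroid markers summed to 3609 CPM in Control Car1 cells and 1212 CPM in the library labelled Runx1 KO, and the 8 megakaryocyte markers to 299 and 782 CPM; their part in the result was not tested. Cells were therefore grouped again without the Ifitm and mitochondrial genes. In erythroid-like clusters (1617 and 1787 Car1 cells) Ifitm1 was at 476 and 21.3 CPM, a ratio of 0.0448. In megakaryocyte-like clusters (425 and 1162 cells), of which one was led by mitotic genes such as Mki67 and Cenpf, it was at 165 and 41.8 CPM, a ratio of 0.253. One erythroid-like cluster held 1140 of the Control Car1 cells, at 814 CPM, and 4 cells of any class of the other library. Another held 1649 Car1 cells of the library labelled Runx1 KO, at 23.5 CPM, and 2 Control cells of any class. The ratio over erythroid-like clusters thus compared mostly different clusters. Of the clusters present in both, an erythroid-like one (475 and 134 cells) stood at 142 and 11.7 CPM. The mitotic megakaryocyte-like one (84 and 765 cells) stood at 192 and 36.8 CPM. An unnamed Control cluster of 105 Car1 cells, led by Prss34, Prg2, Mcpt8, Ms4a2 and Lmo4 over all its cells, reached 3577 CPM. Those 105 cells held 5057 Ifitm1 UMIs. Ifitm1 was lower in the library labelled Runx1 KO in each of these groupings that both libraries held, by amounts that differed between them.

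In CD34 cells Ifitm1 was at 367 CPM in Control (1076 cells) and 203 CPM in the library labelled Runx1 KO (679 cells), a ratio of 0.551 (0.526 to 0.577). The share of cells with a UMI was 84.5% and 70.8%, or 65.6% and 50.3% after thinning. The class did not hold the same cells in both libraries, and the ratio differed between its clusters. Of the Control CD34 cells 74.2% fell in a monocyte progenitor-like cluster, against 3.53% (24 cells) in the library labelled Runx1 KO, and within it the levels were 284 and 309 CPM, a ratio of 1.09 in the other direction. In megakaryocyte-like clusters (60 and 165 cells) the levels were 276 and 141 CPM, a ratio of 0.510, near that of the whole class. Of these, 46 Control cells lay in a cluster with 3 cells of any class of the other library. The basophil and mast cell list stood at 696 and 1135 CPM in CD34 cells, and in cells with 0 of the 6 markers Ifitm1 was at 364 and 231 CPM. The unnamed cluster led by Prss34, Prg2 and Mcpt8 held 121 Control CD34 cells, at 1133 CPM and with 2571 Ifitm1 UMIs. In the library labelled Runx1 KO, 15 CD34 cells fell in unnamed clusters of any kind. The part of these cells in the class ratio was not tested.

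Unannotated cells showed Ifitm1 at 1074 CPM in Control (143 cells) and 97.4 CPM in the library labelled Runx1 KO (175 cells). The class did not hold the same kinds of cells in both libraries. Control had 79 monocyte progenitor-like, 18 megakaryocyte-like, 3 erythroid-like and 43 unnamed cells. The library labelled Runx1 KO had 106 megakaryocyte-like, 50 erythroid-like, 2 neutrophil progenitor-like and 17 unnamed cells. Of the 2005 Control Ifitm1 UMIs, 1423 came from 27 cells with 10 or more basophil and mast cell marker UMIs, which stood at 4340 CPM. Among cells with 0 such UMIs (74 and 89 cells) the levels were 147 and 93.2 CPM, so the ratio was 0.634 there against 0.0906 over the whole class. With 1 to 2 such UMIs (31 and 48 cells) the levels were 225 and 55.8 CPM, a ratio of 0.248. Prg2 cells had 611 CPM over 37 Control cells and 70.0 CPM over 25 cells of the other library, too few for the comparison.

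Fcnb cells, named by ficolin B of the neutrophil lineage, had the opposite direction at a low level. Ifitm1 stood at 10.3 CPM in Control (180 cells) and 33.0 CPM in the library labelled Runx1 KO (318 cells), a ratio of 3.19 (2.33 to 4.45) and the 15th highest log2 difference of 3914 genes. Thinned to 5000 UMIs, 5.17% and 13.2% of the cells held a UMI. The Control share was near that of Hba-a2 cells (4.41%), and the other was above its Hba-a2 share (1.70%). Gstm1/Ly86 cells (137 and 194 CPM, ratio 1.41), Gstm1/CD63 cells (72.9 and 92.2 CPM, ratio 1.26) and Ly86 cells (112 and 133 CPM, ratio 1.18) were also higher in the library labelled Runx1 KO without reaching 1.5-fold. The Gstm1/Ly86 class lay in different clusters in each library: 67.3% of its Control cells and 32.8% of the others were monocyte progenitor-like, and 9.80% and 60.6% neutrophil progenitor-like. Within these the Ifitm1 ratios were 1.80 (206 and 45 cells) and 2.20 (30 and 83 cells). Pf4 cells were lower, at 67.7 and 43.5 CPM.

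Class sizes entered the difference over all cells. Leaving out Prss34 cells gave 261 and 68.1 CPM, leaving out Car1 cells gave 241 and 87.5 CPM, and leaving out both gave 160 and 87.5 CPM, a ratio of 0.548. With each class's level weighted by Control's cell shares over 11 classes, the levels were 305 and 95.3 CPM, a ratio of 0.313. Car1 and Prss34 cells held 23126 and 10399 of the 51434 Ifitm1 UMIs of Control.

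**Figure D4:**
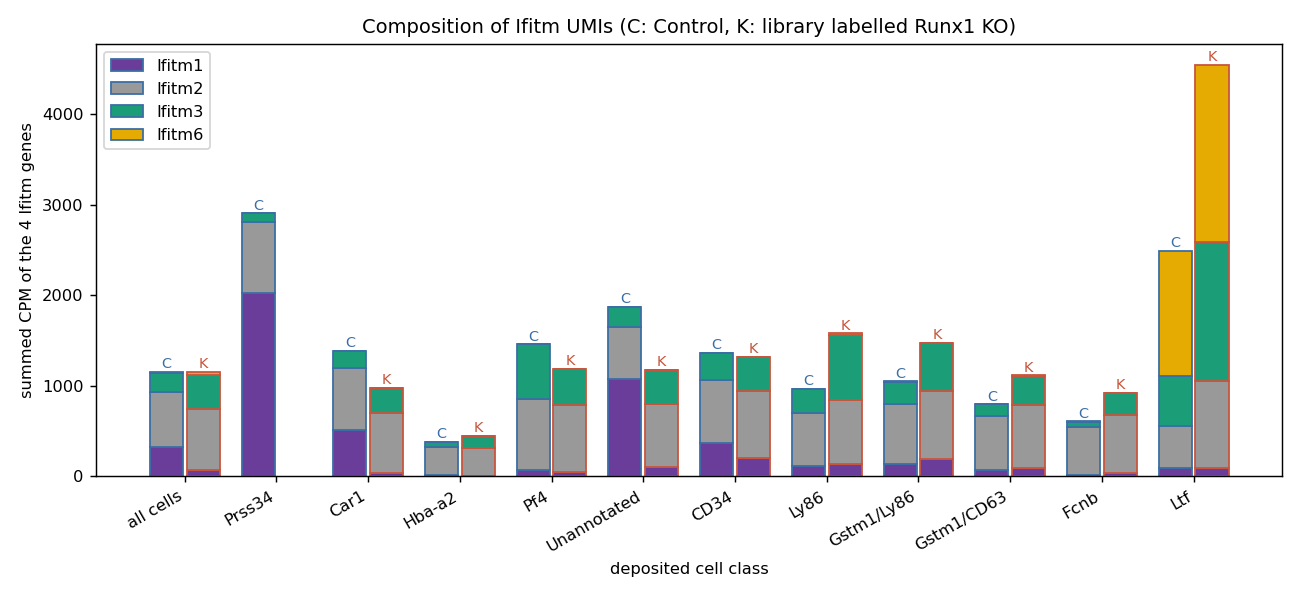
Summed CPM of the 4 members by class and library, stacked by member (no bar for the 1 Prss34 cell of the library labelled Runx1 KO). Ifitm1 makes up most of the Control Prss34 bar (2906 CPM in all) and a large part of the Control Car1 bar, Ifitm6 appears almost entirely in Ltf cells, and Ifitm3 is a larger share in the library labelled Runx1 KO in all 9 compared classes except Pf4.

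Ifitm3, the endosomal member, was highest in Control in Pf4 cells (607 CPM) and Ltf cells (548 CPM), whose intervals overlapped. CD34 cells followed at 297 CPM, then Ly86 (256 CPM) and Gstm1/Ly86 cells (252 CPM), which overlapped, then Unannotated (217 CPM), Car1 (189 CPM) and Gstm1/CD63 cells (130 CPM). Prg2, Cd74 and Prss34 cells lay between 102 and 93.4 CPM, and Fcnb, Vpreb1 and Hba-a2 cells between 62.5 and 55 CPM, with overlaps inside both groups. Prss34 cells, the richest in Ifitm1, were thus among the poorer in Ifitm3. In the library labelled Runx1 KO the order ran from Ltf (1532 CPM) and Ly86 (720 CPM) to Gstm1/Ly86 (535 CPM), Pf4 (405 CPM), CD34 (375 CPM) and Unannotated cells (373 CPM), the last pair overlapping. Gstm1/CD63 (326 CPM), Car1 (284 CPM) and Fcnb cells (245 CPM) came next, and Hba-a2 (125 CPM) and the 25 Prg2 cells (89.6 CPM), which overlapped, were lowest.

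Ifitm3 passed the fold in all 4 neutrophil and monocyte classes compared, and in Hba-a2 and Unannotated cells. In Fcnb cells Ifitm3 was at 62.5 and 245 CPM, a ratio of 3.91 (3.45 to 4.45) and the fifth highest log2 difference of 3914 genes. In Ly86 cells it was at 256 and 720 CPM, a ratio of 2.82 (2.74 to 2.90). Gstm1/CD63 cells had 130 and 326 CPM, a ratio of 2.50, and Gstm1/Ly86 cells 252 and 535 CPM, a ratio of 2.13 (2.48 within both the monocyte and the neutrophil progenitor-like clusters of that class). Hba-a2 cells, the later erythroid class, stood at 55 and 125 CPM, a ratio of 2.28, and Unannotated cells at 217 and 373 CPM, a ratio of 1.72. The Unannotated cells of the libraries differed in kind, as given above. Car1 cells, at 189 and 284 CPM, and CD34 cells, at 297 and 375 CPM, had ratios of 1.51 and 1.26 and did not pass the fold on the log2(CPM + 10) scale.

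The difference was seen across cells as well as in their sums. The median Fcnb cell held Ifitm3 at 42.1 CPM in Control and 208 CPM in the library labelled Runx1 KO, and the median Ly86 cell at 218 and 598 CPM. In Gstm1/CD63 cells the medians were 104 and 295 CPM. At 5000 UMIs per cell, the share with an Ifitm3 UMI was 20.7% and 60.3% in Fcnb, 64.0% and 93.2% in Ly86, 41.1% and 72.3% in Gstm1/CD63 and 23.5% and 39.5% in Hba-a2 cells. Unthinned, Fcnb cells held a UMI in 64.4% and 92.8% at median depths of 26072.5 and 23662. No compared class lacked Ifitm3, so no class gave a background share for it; the lowest share among the compared classes after thinning was 20.7% in Fcnb cells of Control and 39.5% in Hba-a2 cells of the other.

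**Figure D5:**
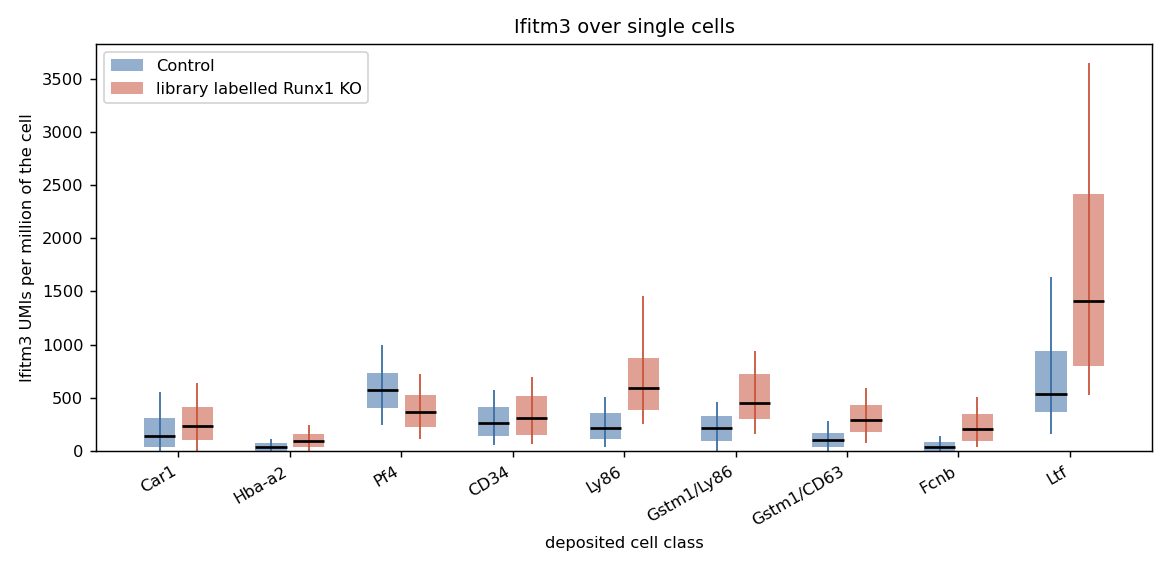
Ifitm3 per single cell (CPM of the cell) by class and library, with black lines at the median, bars from the lower to the upper quartile and thin lines from the 10th to the 90th percentile. The median is higher in the library labelled Runx1 KO in the neutrophil and monocyte classes (42.1 against 208 CPM in Fcnb cells) and lower in Pf4 cells (578 against 368 CPM).

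Pf4 cells, the richest class in Control, went the other way. Ifitm3 stood at 607 CPM in Control (222 cells) and 405 CPM in the library labelled Runx1 KO (1782 cells), a ratio of 0.666 (0.639 to 0.696). The median cell was at 578 and 368 CPM, and 94.6% and 84.5% of thinned cells held a UMI. The log2 difference, -0.57, did not pass the 1.5-fold rule. The class made up 3.21% of Control cells and 22.6% of the library labelled Runx1 KO, and its cells fell in different clusters: 94.6% of the Control Pf4 cells were in a megakaryocyte-like cluster led by Pf4 and Vwf, and 75.3% of the others in one led by Thbs1, Clec1b and Pf4. In megakaryocyte-like clusters of the Car1 class Ifitm3 was also lower, at 421 and 326 CPM (ratio 0.774), and in its erythroid-like clusters it was higher, at 137 and 249 CPM (ratio 1.82). Both groupings pooled clusters held mostly by 1 library: 340 of the 425 Control megakaryocyte-like cells lay in a cluster with 3 cells of the other library. In the mitotic megakaryocyte-like cluster (84 and 765 Car1 cells) Ifitm3 was at 319 and 292 CPM. The erythroid-like cluster present in both (475 and 134 Car1 cells) stood at 96.6 and 142 CPM. Megakaryocyte-like clusters of the CD34 class had the other direction, with 307 and 384 CPM, a ratio of 1.25 (1.10 to 1.43). These too were held mostly by 1 library each.

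Megakaryocyte markers moved with the higher Ifitm3 levels. The 8-gene list summed to 32.6 and 80.5 CPM in Fcnb cells, 42.7 and 140 CPM in Ly86 cells, 46.7 and 211 CPM in Gstm1/CD63 cells and 14.8 and 145 CPM in Hba-a2 cells, with Gp1bb at 0 in Fcnb and Hba-a2 cells of Control. If those marker UMIs had come with Ifitm3 at the ratio seen in Pf4 cells of the same library, they would account for 4.88 of 245 CPM in Fcnb, 8.47 of 720 CPM in Ly86, 12.8 of 326 CPM in Gstm1/CD63 and 8.79 of 125 CPM in Hba-a2 cells of the library labelled Runx1 KO. The same reckoning gave 47.4 of 284 CPM in Car1 and 93.8 of 373 CPM in Unannotated cells. Taking Ltf, Camp and Ngp UMIs and the ratio of Ltf cells instead gave 2.64 CPM in Fcnb and 3.82 CPM in Hba-a2 cells. These reckonings assume a fixed ratio of markers to Ifitm3, and whether UMIs were carried over was not tested.

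Within Ly86 cells a small group held far more Ifitm3. A monocyte progenitor-like cluster led by Lgals3, Lyz2, Fn1, S100a4 and Ccr2 included 46 cells of the library labelled Runx1 KO and 2 of Control. In those 46 cells Ifitm3 stood at 2973 CPM, Ifitm2 at 1111 CPM and Ifitm6 at 223 CPM, while Ifitm1 was at 5.92 CPM. Without the 40 of them in the Ly86 class, and the 2 Control cells, Ifitm3 in Ly86 cells was at 255 and 625 CPM, a ratio of 2.46 (2.39 to 2.53). The class therefore differed in Ifitm3 without that group too.

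Ifitm2, the member with the most UMIs, varied least. It was found in 97.0% of Control cells and 98.5% of the others. Control levels ran from 784 CPM in Prss34 and 783 CPM in Pf4 cells, which overlapped, through CD34 (697 CPM), Car1 (686 CPM) and Gstm1/Ly86 cells (656 CPM) to Fcnb (530 CPM), Hba-a2 (311 CPM) and Cd74 cells (133 CPM). CD34 and Car1 cells overlapped, as did the classes from Ly86 (591 CPM) to Ltf (471 CPM), each with the next. Hba-a2 cells held 313 CPM in the library labelled Runx1 KO, the lowest of its 11 classes with at least 20 cells. Of the 9 ratios 7 were above 1, the upper ones in Unannotated cells (578 and 706 CPM, 1.22) and Fcnb cells (530 and 646 CPM, 1.22), and the lowest in Pf4 cells (783 and 738 CPM, 0.944). Outside the compared classes, Ltf cells (50 and 221 cells) held 471 and 963 CPM.

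Ifitm6 was far higher in Ltf cells, of the late neutrophil lineage, than in any other class with at least 20 cells. It stood there at 1390 CPM in Control (50 cells) and 1964 CPM in the library labelled Runx1 KO (221 cells), a ratio of 1.41 (1.32 to 1.52). The median Ltf cell had the other direction, at 1265 and 1008 CPM. The lower quartile was at 376 and 213 CPM and the ninetieth percentile at 4003 and 5095 CPM. A UMI was found in 90% and 79.2% of those cells at median depths of 11545 and 9352, and in 85.4% and 94.2% after thinning, which kept 41 and 156 cells, so that both the depth and the cells counted differed between the shares. Car1 cells, taken as background, held a UMI in 0.407% and 1.5% of cells at depths of 15393.5 and 14621. Control Cd74 cells (56 cells, named by the invariant chain of major histocompatibility class II) stood at 52.3 CPM.

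Ly86 cells came next among the classes present in both libraries. Ifitm6 was at 5.90 and 19.6 CPM, with a UMI in 14% and 25.5% of cells and, after thinning, in 2.59% and 8.87%. Without the small Lgals3-led cluster the levels were 5.87 and 10.2 CPM. In every other class with at least 20 cells, Cd74 cells aside, the level was at most 3.35 CPM, and 0 of 222 Control Pf4 cells held a UMI, where the limit of 3 UMIs for a count of 0 is 0.686 CPM. Hba-a2 cells of the library labelled Runx1 KO, at 3.21 CPM, owed this largely to 1 cell with 29 UMIs.

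The 4.5-fold difference of Ifitm6 over all cells moved with the number of Ltf cells, which made up 0.724% of Control and 2.80% of the library labelled Runx1 KO. Without that class the levels were 2.32 and 3.24 CPM, a ratio of 1.39, and at Control's class shares the ratio was 1.60.

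Together the members set different family totals by class. Ltf cells carried the most, with 2494 and 4552 CPM, and Control Prss34 cells held 2906 CPM. In the library labelled Runx1 KO the sum was lower in Car1 cells (1389 and 979 CPM), Pf4 cells (1457 and 1187 CPM) and Unannotated cells (1870 and 1177 CPM). It was higher in Ly86 (965 and 1580 CPM), Gstm1/Ly86 (1047 and 1475 CPM), Gstm1/CD63 (794 and 1114 CPM) and Fcnb cells (606 and 925 CPM), and nearly equal in CD34 cells (1363 and 1321 CPM).

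Members were also found together in single cells. At 5000 UMIs per cell, 46.3% of Control cells with an Ifitm3 UMI held an Ifitm1 UMI, against 35.1% of cells without one. In the library labelled Runx1 KO these shares were 21.9% and 12.4%, and within Car1 cells they were 50.2% and 38.3% in Control and 10.9% and 7.46% in the other. Over all cells of each library the share with Ifitm1 was higher among cells that held Ifitm3 than among those that did not, whereas Control Unannotated cells had 45.8% and 48.2%. Cells with an Ifitm6 UMI held Ifitm3 in 73.4% of cases in Control and 93.0% in the library labelled Runx1 KO, against 55.6% and 73.0% of cells without it. Within Ly86 cells the order was the opposite: 59.4% of the 32 Control cells with Ifitm6 and 64.1% of those without it held Ifitm3, and 89.6% of 48 cells and 93.5% in the library labelled Runx1 KO.

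Across 20 sums of a class in a library (11 classes of at least 100 cells), Ifitm2 and Ifitm3 had a Pearson r of 0.71 on log2(CPM + 10), Ifitm1 and Ifitm2 0.51, and Ifitm1 and Ifitm3 0.13. These points share 2 libraries, their depths and most classes, and the values are a description. The genes with the nearest pattern to Ifitm1 among 6144 were Cdc42se2 (0.89), Lmo4 (0.88), Arhgef18 (0.88) and Sike1 (0.87). Of the 20 sums, that of Control Prss34 cells was the highest for Cdc42se2 (92.4 CPM), Lmo4 and Sike1 (46.8 CPM), as for Ifitm1. How far these r values rest on that point was not tested. Lmo4, a LIM-domain transcriptional cofactor, was at 2165 CPM in Control Prss34 cells, 791 and 54.7 CPM in Unannotated cells, 118 and 35.4 CPM in Car1 cells and 277 and 155 CPM in CD34 cells. In Car1 cells Cdc42se2 was at 31.8 and 33.1 CPM, Arhgef18 at 25.3 and 17.3 CPM and Sike1 at 25.6 and 19.7 CPM. Nearest to Ifitm2 were Atxn10 (0.91), Cotl1 (0.91), Arpc2 (0.90) and Lrrfip1 (0.90), and nearest to Ifitm3 were Reep3 (0.84), Lyz2 (0.82), Gsdme (0.82) and Ptpn1 (0.81). Each of these genes, like Ifitm2 and Ifitm3, had its highest sum in Ltf cells of the library labelled Runx1 KO. Lyz2, the lysozyme of myeloid cells, was at 236 and 1394 CPM in Ly86 cells. In Fcnb cells it was at 85.8 and 82.2 CPM, and in Ltf cells of the library labelled Runx1 KO at 17498 CPM. Slfn1 (1.00), Pla2g7, Fgr and Sirpb1c (each 0.99) were nearest to Ifitm6, a likeness that rests on the 1 point of Ltf cells.

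Of the remaining family genes, Ifitm7, which lies on chromosome 16, was at 6.55 and 8.28 CPM over all cells. It was at 10.6 and 24.6 CPM in Ly86 cells, 9.90 and 22.7 CPM in Fcnb cells, 11.9 and 21.7 CPM in Gstm1/CD63 cells and 13.8 and 25.6 CPM in Gstm1/Ly86 cells, 4 of the 6 classes in which Ifitm3 passed the fold. In the other 2, Hba-a2 and Unannotated cells, Ifitm7 was at 0.0747 and 0.184 CPM and at 0.536 and 0 CPM. Car1 cells held it at 0.289 and 0.463 CPM. Ifitm5, best known from bone-forming cells, stood at 1.04 and 0.927 CPM, and Ifitm10 at 0.148 and 0.234 CPM.

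Of the other genes of the interferon response, 3 passed the fold over all cells. Of 49 listed response genes, 48 were in the matrix and 20 were measured over all cells; 2 were higher in the library labelled Runx1 KO and 1 lower, where 4.28% and 1.65% of all measured genes were, with a median log2 difference of 0.30 against 0.00 for all measured genes. Ifi27, an interferon-induced membrane protein gene, was at 64.4 and 131 CPM and Ifi27l2a at 8.91 and 35.8 CPM, while Ly6e, a surface protein gene induced by interferon, was lower at 570 and 369 CPM. Eif2ak2, the kinase that senses double-stranded RNA, was at 29.7 and 46.9 CPM and the guanylate-binding protein gene Gbp7 at 31.2 and 49.7 CPM, both within the fold. By class the list's median lay between 0.10 and 0.42.

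Hba-a2 cells had 4 of 15 measured response genes higher and 0 lower, where 1.8% and 0.751% of all genes were. Pf4 cells had 4 of 19 higher and 1 lower (7.15% and 3.38% of all genes). In Ly86 cells 3 of 19 were higher and 0 lower (2.19% and 0.817%), with Ifi27l2a at 18.0 and 116 CPM, Ifi27 at 38.4 and 90 CPM and Gbp7 at 20.9 and 45.1 CPM. In Car1 cells, where Ifitm1 differed most, 2 of 19 were higher and 0 lower (3.67% and 1.95%), and Ly6e was at 355 and 284 CPM. CD34 cells had 1 of 18 higher (2.85%), Ifi27 at 87.5 and 173 CPM. Fcnb, Gstm1/CD63 and Gstm1/Ly86 cells each had 1 higher and 0 lower, of 13, 15 and 17 measured (1.07%, 1.38% and 1.63%). Unannotated cells had 2 of 22 higher and 4 lower (7.9% and 7.16%), among the latter Ly6e at 663 and 316 CPM. In each of these classes most of the measured response genes were within the fold.

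Of the 18 interferon receptor and signalling genes 9 were measured over all cells, with 1 higher, 1 lower (4.28% and 1.65% of all measured genes) and a median of 0.32. Stat3, a transcription factor of cytokine signalling, was at 42.8 and 74.2 CPM. Irf8, which directs monocyte and dendritic cell development, was at 156 and 52.1 CPM over all cells, and at 493 and 393 CPM in Ly86 cells. Socs3, a feedback inhibitor of cytokine signalling, was at 4.89 and 31.5 CPM in CD34 cells. Il10rb (39.0 and 52.1 CPM) and Irf2 (51.5 and 70.4 CPM) stayed within the fold.

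Genes whose proteins are reported to bind or modify Ifitm proteins, or to sit with them in the CD81 complex, gave 2 higher and 0 lower of 7 measured among 10, with a median of 0.01, beside the same 4.28% and 1.65% of all genes. These were the tetraspanin genes Cd9, at 83.1 and 231 CPM, and Cd81, at 184 and 298 CPM; in CD34 cells they stood at 65.4 and 119 CPM and at 173 and 286 CPM. Nedd4, a ubiquitin ligase, was at 182 and 243 CPM, Vapa at 261 and 248 CPM and the palmitoyltransferase gene Zdhhc20 at 36 and 34.9 CPM.

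Summed over all cells, none of the measured neighbours of the Ifitm genes on chromosome 7 passed the fold. Of 16 listed genes at most 171 kb away, 6 were measured over all cells and 0 passed 1.5-fold in either direction, with a median of 0.00. By class the only one past it was 1 of 6 in Unannotated cells, lower, where 7.16% of all genes were. Sirt3 had the widest gap, at 79.2 and 62.9 CPM, followed by Hras (91.9 and 86.8 CPM) and Ptdss2 (33.7 and 35.3 CPM). Psmd13, Rnh1 and Ric8a had ratios of 1.02, 1.02 and 0.985.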

How the data were processed

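Deposited UMI counts per gene and cell came as 1 matrix of both libraries (10x Genomics 3′ kit, version 3, per the labels). Cell Ranger and mm10 are named in the submitters' processing notes, without versions or settings. The authors' cell annotation gives counts per cell, the mitochondrial fraction of UMIs, a ratio of each cell's depth to a constant, and in other columns the library and class names. The library called wild type there was taken as Control. The sources used here do not say how classes were assigned. All deposited cells were kept, no doublet caller was run, and 0 columns were left unmapped.

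The members and gene lists were chosen with earlier results of these data known. Within each class and library, UMIs were added up and expressed as counts per 1000000 (CPM). Counts gave exact Poisson intervals, ratios exact conditional binomial intervals and shares Clopper-Pearson intervals, all at 95% and for counting error only; edgeR and other count tests across samples need replicates, so no test was run and edgeR 4.0.16 supplied normalization factors alone. A gene counted as measured from 30 CPM in the higher library and 100 UMIs, and as different from 1.5-fold on log2(CPM + 10). Classes were compared from 100 cells per library and described from 20. Shares were repeated with cells thinned to 5000 and 10000 UMIs. Genes named were the members, the other Ifitm genes, Runx1, the 4 genes of nearest pattern to each member, and up to 4 measured genes of each list with the widest differences over all cells and in CD34 cells; Gbp7, Ly6e, Ifi27 and others are then followed across classes. Own clusters came from 2000 variable genes without Ifitm and mitochondrial genes, 30 components, 15 neighbours and resolution 0.5 (scikit-learn 1.9.0, leidenalg 0.10.2), with names from marker lists. Python 3.11.15, pandas 2.3.3, scipy 1.17.1 and R 4.3.3 were used, and the calculations were tested on simulated counts. Control held 162278272 UMIs and the library labelled Runx1 KO 145590840, with at least 10% mitochondrial UMIs in 2.74% and 4.12% of cells. Promoters were RefSeq windows on GRCm38.p6. Alternatives tried were other scalings, a class mix held equal, fewer cells, own clusters and other folds.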

Additional observations from a re-analysis of the deposited data

Results flagged for a closer look

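Ifitm1 and Ifitm3 each differed between the libraries in opposite directions in different classes. For Ifitm1 the ratio of the library labelled Runx1 KO over Control was 3.19 in Fcnb cells and 0.0596 in Car1 cells. For Ifitm3 it was 3.91 in Fcnb cells and 0.666 in Pf4 cells. With 1 library on each side, the difference between the classes was not tested.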

How the results depend on the processing

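No paired analysis was possible because each group had 1 library, and for the same reason no replicate could be left out. Over all cells, the ratio of Ifitm1 (0.215) was 0.140 as a mean of single-cell CPM, 0.199 without the 5% of cells with the most UMIs and 0.313 at Control's class mix. Ifitm2 (1.09) was 1.08, 1.08 and 1.07 under these settings and 1.07 with median-of-ratios factors. Ifitm3 (1.79) was 1.73 without the deepest cells and 1.82 at Control's mix, and Ifitm6 (4.5) was 3.73 as a mean of cells and 1.60 at Control's mix. Leaving out classes was chosen after seeing the data. Without Prss34, Car1 or both, Ifitm1 gave 0.261, 0.363 and 0.548, Ifitm2 1.10, 1.14 and 1.16, and Ifitm3 1.76, 1.95 and 1.90. Ifitm6 gave 4.93 without Car1 and 1.39 without Ltf cells, and Ifitm3 1.71 without Ltf cells. Within classes, 127 alternative values of 26 ratios kept 99 within the counting interval, moved 27 and reversed 1: Ifitm1 in CD34 cells, 1.09 in monocyte progenitor-like cells against 0.551. Values moved by over 1.5 times also for Ifitm1 in Car1 cells (0.0382 as a mean of cells) and Ifitm3 in CD34 cells (2.30 in monocyte progenitor-like cells). Among subsets chosen after seeing the data, Ifitm3 in Car1 cells reversed to 0.774 in megakaryocyte-like clusters, which were mostly held by 1 library each. With own clusters, Ifitm1 was at least 1.5-fold higher in 2 classes and lower in 1, against 1 and 3. The share of cells with a UMI, in percentage points between the libraries, was -25.9 for Ifitm1 and -22.0, -19.1 and -22.8 with 5000 UMIs, 10000 UMIs or at least 3 UMIs asked. For Ifitm2 it was 1.48 against 2.19, 0.642 and 2.48, and for Ifitm3 9.05 against 17.8, 14.9 and 14.8. At a 2-fold limit, where 2.17% of all measured genes were higher and 0.413% lower, the interferon response list gave 1 and 0 of 20. With no CPM minimum, where 2.42% of all genes were higher and 0.886% lower, it gave 7 and 1 of 48. The receptor list gave 0 higher and 1 lower of 9 at 2-fold, and 2 higher and 1 lower of 18 with no minimum. The partner list gave 1 higher and 0 lower of 7 at 2-fold. Causes of these shifts were not tested. Depth limits Ifitm6, at a few UMIs in most classes, and Ifitm1 in Fcnb and Hba-a2 cells.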
